A study of Mus musculus with 9 samples.

Results

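The replication-dependent histone genes are the clustered genes that supply most of the histone protein packaged onto newly made DNA. They were taken from the expression table by their symbols: *Hist1*, *Hist2*, *Hist3* or *Hist4* followed by h and a code for the histone type, with pseudogene symbols left out. By this rule 65 of the 48820 genes in the table were members, namely 6 genes for the linker histone H1, 18 for H2A, 16 for H2B, 12 for H3 and 13 for H4. The *Hist1* cluster on chromosome 13 held 52 of them, *Hist2* on chromosome 3 held 10, *Hist3* on chromosome 11 held 2 and *Hist4* on chromosome 6 held 1. The symbol *Hist3h2bb-ps* was left out as a pseudogene.

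The data are RNA-seq of hearts from C57BL/6J mice, all WT and without treatment, at embryonic day 18.5 (E18.5d), at postnatal day 1 (P1d) and at postnatal day 7 (P7d). Each stage had 3 hearts given as biological replicates. The sources used here do not say whether a replicate was 1 heart or a pool, so the tests measure the spread between these samples. All 9 were labelled male, but *Xist*, the RNA of the inactive X chromosome, stood at 58.0 to 97.0 FPKM (sequenced fragments scaled to transcript length and library depth) in E18.5d replicates 1 and 3 and P7d replicates 2 and 3, where the Y-linked *Ddx3y* was listed at 0. P1d replicate 2 stood apart: its FPKM summed to 1794160 over all genes, against 1347981 to 1520448 in the other hearts, nuclear protein-coding genes gave 29.6% of it (30.2 to 37.3% elsewhere), and the small structural RNAs *Rn7sk* (434217 FPKM) and *Rpph1* (153695) were highest there.

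In dividing cells these genes are switched on together as DNA replication starts and their mRNA is degraded when it ends. Their mRNAs mostly carry no poly(A) tail; they end just after a short RNA hairpin, which the stem-loop binding protein SLBP holds through processing, export and translation. Replacement histones such as H3.3, in contrast, come from ordinary polyadenylated genes that are read throughout the cell cycle. In the mouse, heart muscle cells leave the cell cycle after birth, and many make DNA a last time in the first postnatal week without dividing.

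The hairpin is shown first because it defines how these mRNAs end. In the GENCODE M21 gene models (GRCm38), 44 of the 65 members held a match to the hairpin consensus in the annotated 3′ UTR, against 16 of 21071 other protein-coding genes (0.0759%). It began a median of 31.5 bases after the stop codon, with a range of 21 to 58. The sequences below give the hairpin of 16 bases in capitals with 5 flanking bases on each side, written 5′ to 3′ on the strand of the gene.
*Hist1h1c*, chr13:23739507-23739532 (plus strand): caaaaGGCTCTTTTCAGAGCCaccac
*Hist1h1e*, chr13:23621777-23621802 (minus strand): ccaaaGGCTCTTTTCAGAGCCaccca
*Hist1h2bj*, chr13:22043633-22043658 (plus strand): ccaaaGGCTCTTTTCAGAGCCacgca
*Hist2h3c2*, chr3:96238480-96238505 (minus strand): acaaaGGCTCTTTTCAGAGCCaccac
*Hist1h3g*, chr13:23535884-23535909 (plus strand): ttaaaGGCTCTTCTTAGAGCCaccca
*Hist1h4d*, chr13:23581945-23581970 (plus strand): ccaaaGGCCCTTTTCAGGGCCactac
*Hist1h4b*, chr13:23757361-23757386 (plus strand): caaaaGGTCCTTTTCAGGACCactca
The hairpins of *Hist1h1c*, *Hist1h1e*, *Hist1h2bj* and *Hist2h3c2* were identical, and 24 members shared this form. Among the tested members, *Hist1h1c* had the largest rise from E18.5d to P1d and *Hist2h3c2* the largest fall. Whether the form of the hairpin bears on the change was not tested. The form in *Hist1h4d* was found in 7 members, and 8 forms were found in all. Of the 21 members with no match, 16 had fewer than 40 bases of annotated 3′ UTR, so their models end before or close to where the hairpin stands in the others. The other 5, *Hist1h1a*, *Hist1h2bc*, *Hist1h2bq*, *Hist1h2br* and *Hist2h2be*, had 40 bases or more without a match. *Hist1h1a* had only 48, so its model may also end before a hairpin.

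The histone signal was highest in the embryonic hearts and lowest at P1d. Summed over the 65 genes, FPKM was 27006, 25047 and 21864 in the E18.5d hearts, 8212, 12271 and 9694 in the P1d hearts and 15478, 19833 and 17610 in the P7d hearts. The ranges of the 3 stages did not overlap. The mean was 24639 ± 2595 (SD, n = 3) in the embryonic hearts, 10059 ± 2054 in the P1d hearts and 17640 ± 2178 in the P7d hearts, which is 4.81%, 1.98% and 3.87% of the FPKM of all nuclear protein-coding genes (themselves 29.6 to 37.3% of all FPKM). The sum at P1d was thus 0.408 times that at E18.5d, and at P7d it was 1.75 times that at P1d and 0.716 times that at E18.5d. Without P1d replicate 2 the first 2 ratios were 0.363 and 1.97. In these bulk samples, fewer cells making histone mRNA and less mRNA in each cell cannot be told apart.

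The sums of the core histones were lower at P1d by larger factors than that of the linker histone. From E18.5d to P1d the sum changed by a factor of 0.294 for H3, 0.341 for H2B, 0.359 for H2A and 0.432 for H4, but 0.859 for H1. The H1 sums were 1716, 1538 and 1314 FPKM at E18.5d and 1233, 1497 and 1193 at P1d, and these ranges overlapped. The H3 sums were 3248, 3286 and 2802 FPKM at E18.5d and 688, 1115 and 943 at P1d, far apart. By P7d the sums stood at 0.655 to 0.749 times the E18.5d level for the core types and at 0.879 for H1. Median-of-ratios scaling gave 0.760 for H2B, the lowest of the core types, and 1.02 for H1, which turned its direction. These sums were not tested.

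**Figure D1:**
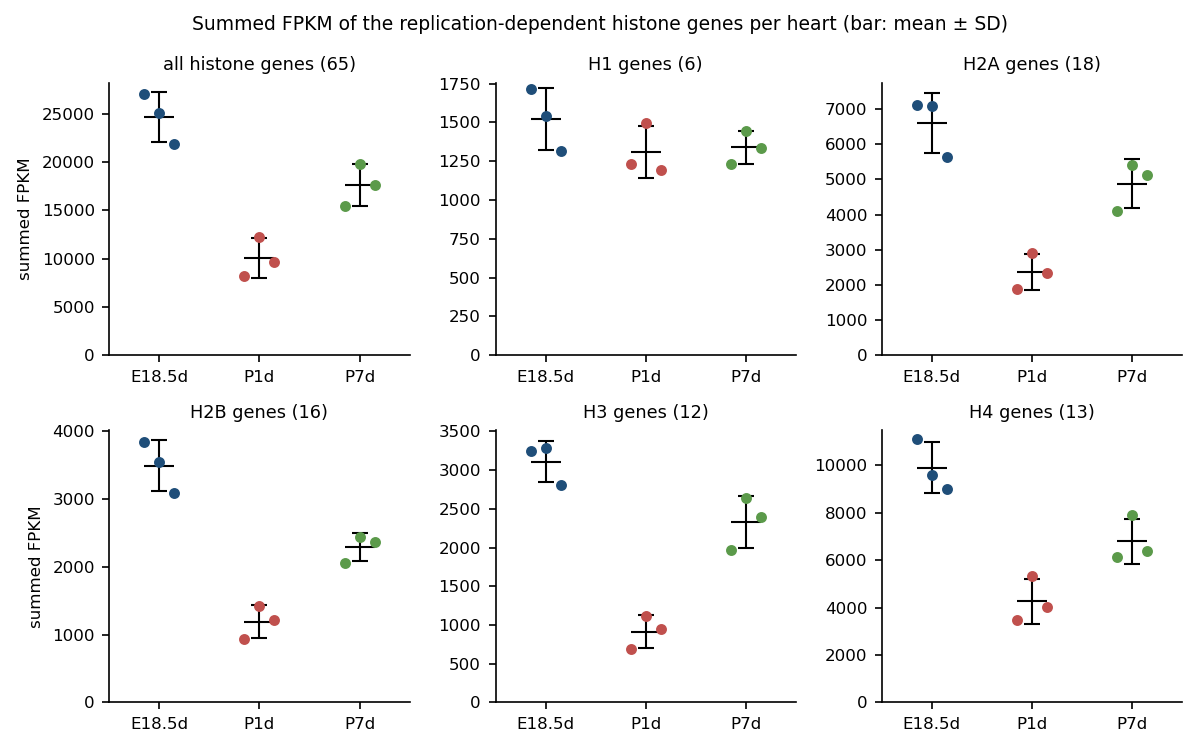
Summed FPKM (y axis) of all 65 histone genes and of each histone type in each heart, by stage (x axis); points are hearts and bars the mean ± SD of 3. In the panels of the core histones the P1d hearts lie below all others, while the H1 sums of the 3 stages overlap.

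The signal was uneven among copies of the same protein. *Hist1h4d* had the highest mean at each stage, at 2365 ± 168, 1118 ± 189 and 1651 ± 222 FPKM. The 10 highest members held 47.0%, 57.1% and 47.2% of the sum at the 3 stages in order of age, and the median member stood at 271, 84.6 and 197 FPKM. Levels of single copies should be read with the gene models in mind: 27 members are shorter than 500 bases, and the smallest steps between low FPKM values matched a length reduced by 292 to 304 bases at E18.5d, 324 to 328 at P1d and 308 to 320 at P7d, so short genes are divided by a small number. Near-identical copies may also share fragments. In windows of 100 bases, 58 of the 65 members shared at least 1 stretch with another gene and 25 shared 50% or more of their windows.

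The test needed a mean of 1 FPKM, and 4 members stayed under it. *Hist1h2bq* averaged 0.397 FPKM, *Hist2h3c1* 0.278 and *Hist1h2ba* 0.05, the last of these with 0.450 in E18.5d replicate 1 and listed at 0 elsewhere. *Hist1h2aa* was listed at 0 in all 9 hearts. *Hist1h2aa* and *Hist1h2ba* encode histones known from the testis. The other 61 members averaged above 1 FPKM at every stage and were tested with limma on log2(FPKM + 1) in a fit of 13618 genes, and a call needed a Benjamini-Hochberg adjusted p below 0.05.

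At P1d, 56 of the 61 tested members were lower than at E18.5d and 2 were higher. Among all tested genes 27.6% were lower and 18.4% higher. The median change of the members was -1.65 on the log2 scale, against -0.06 for all genes. Every called member had P1d hearts that lay apart from the E18.5d hearts. A call with 3 hearts per stage tends to need this, and it was not counted over all called genes, so it does not set the members apart. The count was 17 of 17 for H2A, 11 of 11 for H3, 13 of 14 for H2B and 12 of 13 for H4, but 3 of 6 for H1. Taking *Xist* above 1 FPKM as a covariate left 54 lower and 2 higher.

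**Figure D2:**
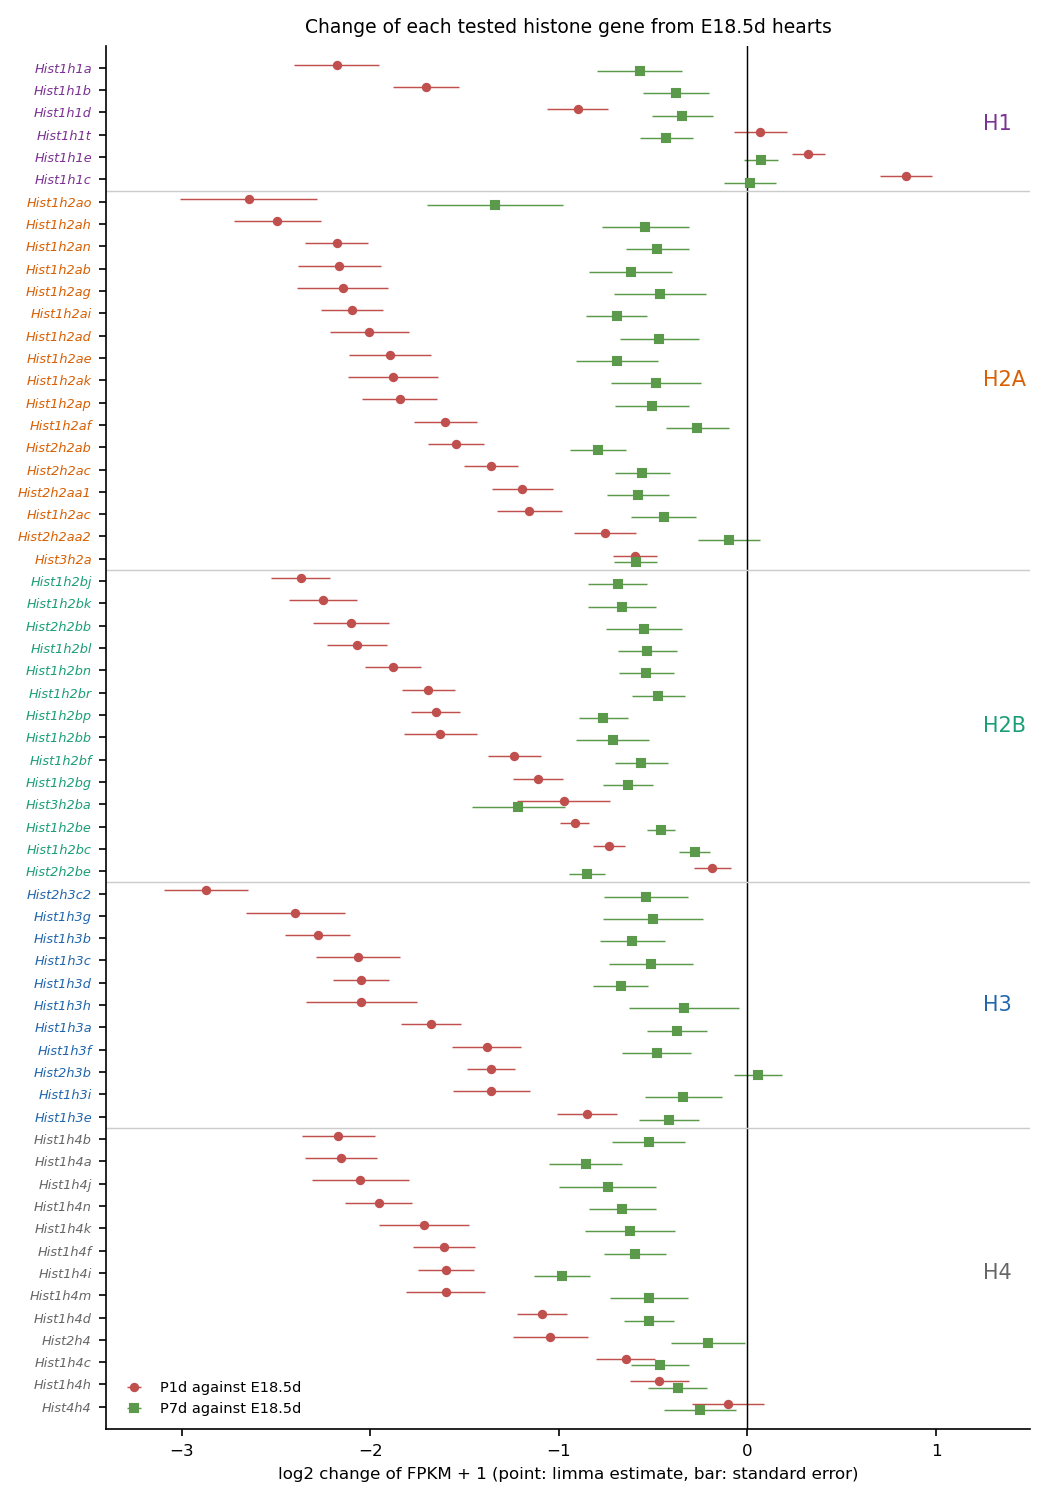
Change of each of the 61 tested histone genes from E18.5d to P1d (circles) and to P7d (squares) on the log2(FPKM + 1) scale, grouped by histone type; points are limma estimates and bars standard errors. The circles span -2.87 to 0.84 and the squares -1.34 to 0.07, with *Hist1h1c* and *Hist1h1e* the called members to the right of zero.

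The H3 genes held the largest fall. *Hist2h3c2*, which encodes the H3.2 protein, was at 166, 184 and 155 FPKM in the E18.5d hearts, 16, 22.5 and 30.0 in the P1d hearts and 86.2, 134 and 133 in the P7d hearts. Its P1d values lay far below both other stages. The change to P1d was -2.87 ± 0.22 (log2, SE) with an adjusted p of 1.37e-05 by limma, and the change from P1d to P7d was 2.33 ± 0.22 with an adjusted p of 6.57e-05. Of its windows of 150 bases, 59.4% also occur in *Gm20634*, a gene model that covers the neighbouring copies *Hist2h2aa1* and *Hist2h3c1*, so the authors' counting could have split its fragments.

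*Hist1h3b*, among the H3 genes with the highest levels, read 518, 533 and 454 FPKM at E18.5d, 75.3, 128 and 111 at P1d and 289, 358 and 339 at P7d. All 3 stages were separate. It fell by 2.28 on the log2 scale at P1d (adjusted p = 1.24e-05, limma) and regained 1.67 by P7d (adjusted p = 9.95e-05). *Hist1h3c* showed the same order of stages, with means of 610 ± 40.9, 151 ± 50.9 and 430 ± 68.1 FPKM.

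*Hist2h3b* differed from these at P7d. Its values were 350, 382 and 283 FPKM at E18.5d, 120, 128 and 143 at P1d and 303, 386 and 364 at P7d. The P7d and E18.5d hearts overlapped, and the log2 change between these stages was 0.06 ± 0.13 (adjusted p = 0.732, limma), with a change of 0.30 and an adjusted p of 0.0419 after quantile normalization.

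Among the H2A genes, *Hist1h2ap* and *Hist2h2aa2* had the highest levels, and they fell to different extents. *Hist1h2ap* read 1215, 1341 and 958 FPKM at E18.5d, 238, 383 and 367 at P1d and 676, 891 and 907 at P7d, a log2 change of -1.84 ± 0.20 at P1d (adjusted p = 9.13e-05, limma). *Hist2h2aa2* read 1227, 1134 and 994 FPKM at E18.5d, 540, 854 and 622 at P1d and 913, 1177 and 1048 at P7d, a log2 change of -0.76 ± 0.16 at P1d (adjusted p = 0.00451, limma). The P7d hearts overlapped the E18.5d hearts for *Hist2h2aa2* and did not for *Hist1h2ap*. *Hist2h2aa2* shares its whole sequence with *Hist2h2aa1*, whose means were 691 ± 141, 300 ± 49.1 and 457 ± 48.9 FPKM, so how the signal splits between this pair is uncertain.

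The largest falls of H2A genes were in *Hist1h2ao*, a lowly read copy, and *Hist1h2ah*. *Hist1h2ao* stood at 12.8, 15.1 and 22.0 FPKM at E18.5d, 0.880, 3.95 and 1.24 at P1d and 4.87, 8.84 and 4.46 at P7d. It shares 91.5% of its windows of 150 bases with *Hist1h2ap*, a copy read far more. *Hist1h2ah* fell by 2.49 on the log2 scale at P1d (adjusted p = 4.05e-05, limma), from 196 ± 21.1 to 35.1 ± 11.3 FPKM, and stood at 135 ± 26.4 at P7d.

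The H2B genes fell as a group apart from *Hist2h2be*. *Hist1h2bj* had the largest fall, with 283, 254 and 223 FPKM at E18.5d, 36.6, 58.7 and 51.3 at P1d and 143, 165 and 161 at P7d. The 3 stages did not overlap, and the log2 change at P1d was -2.37 ± 0.16 (adjusted p = 5.92e-06, limma). The H2B copies with the highest levels, *Hist1h2bb* and *Hist1h2bg*, fell by 1.63 and 1.11 on the log2 scale. *Hist2h2bb* fell by 2.10 and stood at 474 ± 60.1, 112 ± 31.6 and 325 ± 55.0 FPKM.

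*Hist1h2bc* and *Hist2h2be* are H2B genes known to give polyadenylated mRNA as well, and their annotated 3′ UTRs hold no hairpin match. *Hist1h2bc* read 219, 202 and 183 FPKM at E18.5d, 111, 129 and 121 at P1d and 155, 168 and 173 at P7d. Its stages were separate, and its log2 change at P1d was -0.73 ± 0.08 (adjusted p = 1.22e-04, limma), against a median of -1.64 over the H2B genes. *Hist2h2be* read 6.76, 6.97 and 5.82 FPKM at E18.5d, 5.21, 6.31 and 5.31 at P1d and 3.43, 3.09 and 2.97 at P7d. Its E18.5d and P1d hearts overlapped (log2 change -0.19 ± 0.10, adjusted p = 0.142, limma, but -0.34 and 0.0193 with all libraries set to the same total), while all P7d hearts were lower than both (-0.66 ± 0.10 against P1d, adjusted p = 5.93e-04).

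The H4 genes held the largest share of the sum, and their copies ranged widely. *Hist1h4d* read 2526, 2379 and 2190 FPKM at E18.5d, 964, 1329 and 1059 at P1d and 1425, 1869 and 1659 at P7d, a log2 change of -1.09 ± 0.13 at P1d (adjusted p = 1.85e-04, limma). *Hist1h4b* fell most among the H4 genes, from 525 ± 62.6 to 119 ± 32.0 FPKM, a log2 change of -2.17 ± 0.19 (adjusted p = 3.38e-05). *Hist1h4m*, at 1192 ± 172, 403 ± 130 and 830 ± 127 FPKM, lay between them.

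Other H4 copies moved less. *Hist1h4c* read 1597, 1385 and 1262 FPKM at E18.5d, 782, 1116 and 834 at P1d and 982, 1207 and 895 at P7d. Its P1d hearts were all below the E18.5d hearts (log2 change -0.65 ± 0.15, adjusted p = 0.00766, limma) but overlapped the P7d hearts (0.18 ± 0.15, adjusted p = 0.369). *Hist4h4*, the only gene of its cluster, read 29.4, 27.3 and 23.6 FPKM at E18.5d, 20.1, 35.1 and 21.3 at P1d and 22.1, 25.6 and 19.4 at P7d. Its stages overlapped throughout and none of its 3 comparisons passed the test, with adjusted p values of 0.681, 0.300 and 0.562 by limma.

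The H1 genes divided in direction. H1 binds the linker DNA between nucleosomes, and the somatic subtypes are encoded by *Hist1h1a* to *Hist1h1e*. *Hist1h1a* read 205, 207 and 170 FPKM at E18.5d, 28.6, 62.2 and 41.4 at P1d and 115, 139 and 137 at P7d, a log2 change of -2.18 ± 0.23 at P1d (adjusted p = 7.69e-05, limma). *Hist1h1b* fell by 1.70 (adjusted p = 7.01e-05) and *Hist1h1d* by 0.90 (adjusted p = 0.00174). For all 3 genes the P1d hearts lay below every E18.5d heart.

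*Hist1h1c* and *Hist1h1e* went up. *Hist1h1c* read 260, 227 and 192 FPKM at E18.5d, 396, 492 and 336 at P1d and 222, 232 and 227 at P7d. Every P1d heart was above every other heart, with a log2 change of 0.84 ± 0.14 against E18.5d (adjusted p = 0.00108, limma) and -0.83 ± 0.14 from P1d to P7d (adjusted p = 0.00136). *Hist1h1e* read 512, 471 and 412 FPKM at E18.5d, 582, 611 and 547 at P1d and 459, 521 and 482 at P7d. Its change of 0.32 ± 0.09 at P1d passed the test (adjusted p = 0.0143) but did not with all libraries set to the same total (0.15, adjusted p = 0.220). Its change from P1d to P7d was -0.25 ± 0.09 (adjusted p = 0.0431), and quantile normalization gave 0.0092 (adjusted p = 0.923). That call was also lost without E18.5d replicate 2 (adjusted p = 0.0631), P1d replicate 1 (0.0906) or 2 (0.111), or P7d replicate 1 (0.135) or 3 (0.101).

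The makeup of the H1 signal differed between stages. *Hist1h1c* and *Hist1h1e* together gave 45.0%, 45.3% and 46.0% of the H1 sum in the E18.5d hearts, 79.2%, 73.6% and 73.9% in the P1d hearts and 55.3%, 52.0% and 53.0% in the P7d hearts. *Hist1h1a* and *Hist1h1b* together gave 32.0% ± 0.839 (SD, n = 3), 10.2% ± 2.25 and 26.4% ± 1.26. *Hist1h1t*, the testis H1, stood at 2.83 ± 0.245, 3.02 ± 0.238 and 1.88 ± 0.525 FPKM, and its P7d values were lower than those of both other stages (adjusted p = 0.0276 against E18.5d and 0.0165 against P1d, limma). The first of these was lost under median-of-ratios scaling (adjusted p = 0.141) and without P7d replicate 1 (0.0720), E18.5d replicate 1 (0.0654) or E18.5d replicate 2 (0.0872), and the second with all libraries set to the same total (0.0626).

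**Figure D3:**
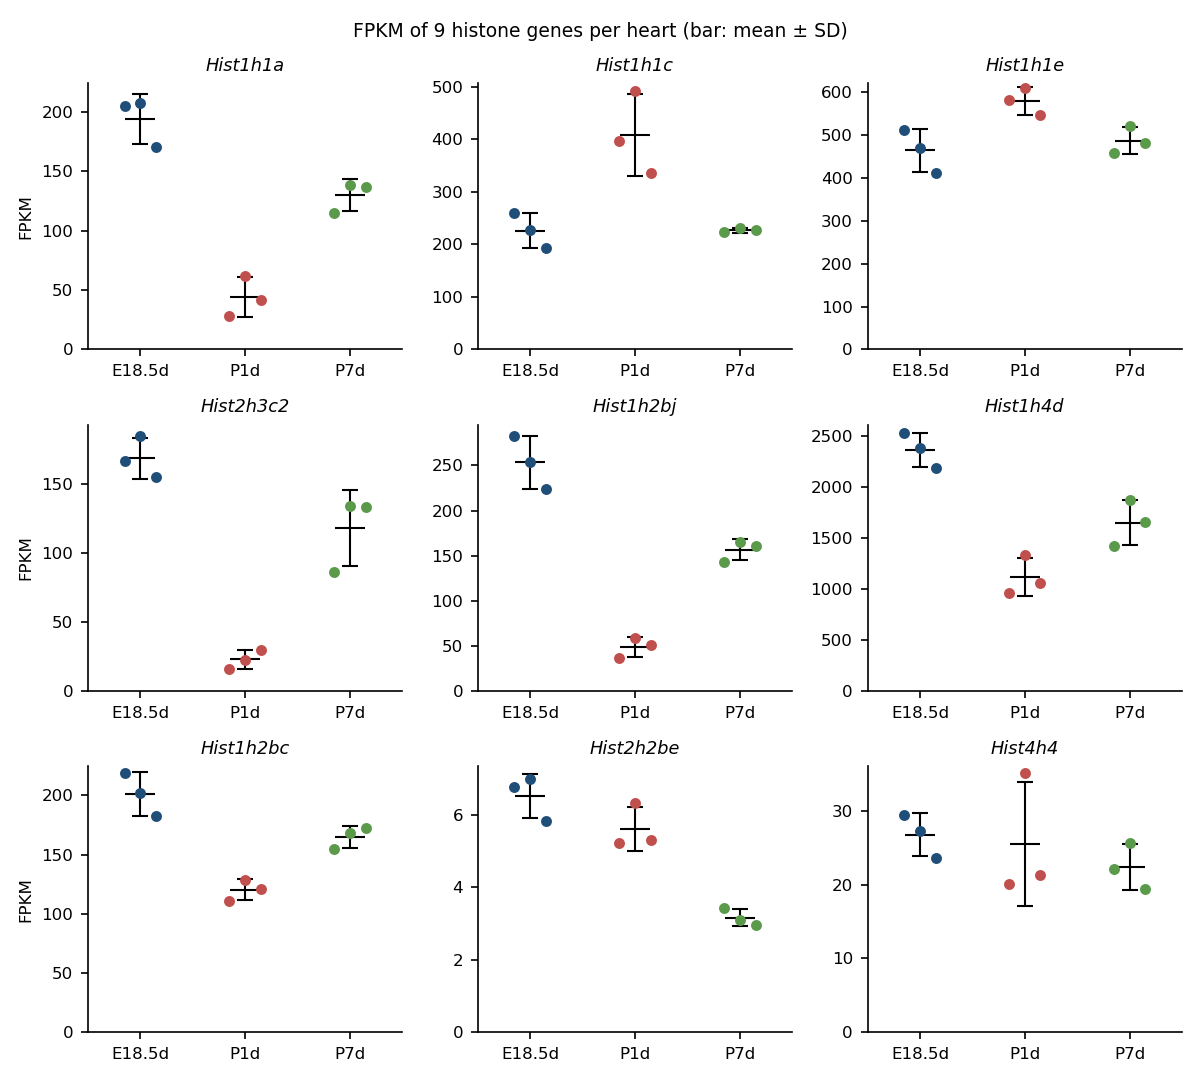
FPKM (y axis) of 9 histone genes in each heart by stage (x axis); points are hearts and bars the mean ± SD of 3. *Hist1h1c* and *Hist1h1e* are highest in the P1d hearts, *Hist1h1a*, *Hist2h3c2*, *Hist1h2bj*, *Hist1h4d* and *Hist1h2bc* are lowest there, *Hist2h2be* is lowest in the P7d hearts and the stages overlap for *Hist4h4*.

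The *Hist3* genes were low at both postnatal stages. *Hist3h2a* read 48.9, 47.8 and 39.5 FPKM at E18.5d, 27.3, 34.2 and 27.8 at P1d and 26.5, 32.4 and 30.3 at P7d. Both postnatal stages lay below every E18.5d heart (adjusted p = 0.00248 and 0.00235, limma) and overlapped each other (log2 change 0.00 ± 0.12, adjusted p = 0.986). *Hist3h2ba* averaged 15 ± 3.35, 7.23 ± 2.46 and 5.93 ± 1.83 FPKM.

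Between P1d and P7d, 51 of the 61 tested members rose and 4 fell, where 15.5% of all tested genes rose and 28.6% fell. The median change was 1.20 on the log2 scale, against -0.09 for all genes. The largest rises were in *Hist2h3c2* (2.33), *Hist1h2ah* (1.95 ± 0.23), *Hist1h2bj* (1.68 ± 0.16), *Hist1h4b* (1.65 ± 0.19) and *Hist1h1a* (1.61 ± 0.23), each the largest of its histone type. The 4 that fell were *Hist1h1c*, *Hist1h1e*, *Hist1h1t* and *Hist2h2be*. The 6 called in neither direction were *Hist3h2a*, *Hist3h2ba*, *Hist4h4*, *Hist1h3e*, *Hist1h4c* and *Hist1h4h*. With *Xist* as a covariate, 43 rose and 3 fell.

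Between E18.5d and P7d, 34 of the 61 were lower and none higher by limma, where 36.9% of all tested genes were lower and 12.5% higher. No member was higher at an unadjusted p below 0.05 either, and 46 were lower. The shares of all tested genes given here are for adjusted p, and those at the unadjusted threshold were not counted. The median change was -0.52, against -0.17 for all genes. The 14 tested H2B genes were all lower, against 9 of 17 for H2A, 8 of 13 for H4, 2 of 11 for H3 and 1 of 6 for H1; the difference between types was not tested. This count depended on single hearts and on scaling: it was 20 without E18.5d replicate 1 and 19 without P7d replicate 1, and 13 after median-of-ratios scaling, which adds 0.21 on the log2 scale to this comparison for every gene. The largest falls were in *Hist1h2ao* (-1.34 ± 0.36), *Hist3h2ba* (-1.22 ± 0.25) and *Hist1h4i* (-0.98 ± 0.15). *Hist1h4i* is a lowly read H4 copy at 19.5 ± 1.67, 5.83 ± 1.46 and 9.40 ± 1.34 FPKM. *Hist1h3d* fell most among the H3 genes, by 0.67 on the log2 scale (adjusted p = 0.00449, limma), from 271 ± 31.3 to 171 ± 27.4 FPKM.

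Members of the same stage moved together from heart to heart. Of the 61 tested genes, 54 were highest of the P1d hearts in replicate 2 and 53 were lowest in replicate 1. Replicate 2 is the heart that stood apart in its total, and without it 57 members were lower at P1d and 52 rose from P1d to P7d. Replicate 3 was lowest of the E18.5d hearts for 53 genes, and replicate 1 was lowest of the P7d hearts for 50. The spread within a stage is therefore largely shared by the members, and they are not independent readings of the stage. These ranks were not counted over all tested genes, so they do not set the members apart.

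Transcript ends were compared as a description, with groups set after the values were known. Of the members, 22 have gene models that end within 100 bases of the hairpin, and all 22 fell at P1d with a median log2 change of -1.90. Another 22 have models that run more than 100 bases past it, and of the 21 tested, 17 fell and 2 rose, with a median of -1.04. The 15 tested members with a 3′ UTR under 50 bases and no hairpin match fell with a median of -1.88. Over all tested members 56 of 61 fell, and over all tested genes 27.6%. Of the 3 tested members with no hairpin and a long 3′ UTR holding a polyadenylation hexamer, *Hist1h2br* changed by -1.69, *Hist1h2bc* by -0.73 and *Hist2h2be* by -0.19. Long models also hold longer lengths and, among the H1 genes, 4 of 6 are in the group that runs past the hairpin.

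**Figure D4:**
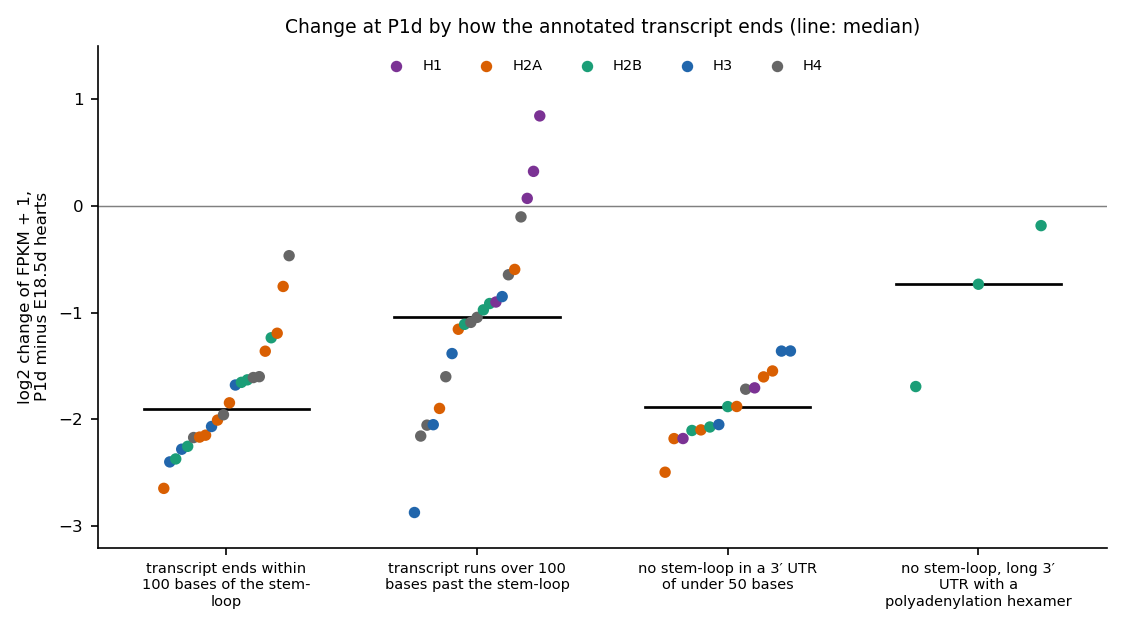
Change of each tested histone gene from E18.5d to P1d (y axis, log2 of FPKM + 1) by how its annotated transcript ends (x axis); points are genes coloured by histone type and lines group medians. The medians are -1.90, -1.04, -1.88 and -0.73 from left to right, and the groups overlap.

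Members were also described by position. Those on chromosome 13 lie in a block at chr13:21715763-22043676 (22 genes) and a second at chr13:23531050-23934851 (30 genes). All 21 tested genes of the first block fell at P1d, by a median of 1.96 on the log2 scale, and 25 of the 28 tested genes of the second fell, with a median change of -1.49. Over all tested members 56 of 61 fell, and over all tested genes 27.6%. The difference between the blocks was not tested. All the *Hist1* H1 genes but *Hist1h1b* lie in the second block.

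Promoter sequences were examined because the members moved together. RefSeq (GRCm38.p6) gave windows from 250 bases before to 50 after the start for 60 of the 65 members. On either strand, CCAAT stood in 51 of the 60 (85.0%) against 37.9% of 27025 promoters, and TATAAA in 35 (58.3%) against 14.2%. The octamer ATTTGCAT, known as the Oct-1 site of H2B promoters, stood in 12, of which 7 are H2A and 5 H2B genes, against 1.75% of all promoters. AAACACA, known as the H1 box, stood in 5 of 6 H1 promoters and 3 others, against 7.14% of all. The windows of 20 members overlap that of another member, since H2A and H2B genes often stand head to head, so some matches are counted for both. CCAAT was found in all H1, H2A, H2B and H3 windows but in 3 of 12 for H4.

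A promoter of an H1 gene that rose, one of an H1 gene that fell and one of a strongly falling H2A gene are shown, with these motifs or their reverse complements in capitals.
*Hist1h1c*, chr13:23738557-23738856 (plus strand): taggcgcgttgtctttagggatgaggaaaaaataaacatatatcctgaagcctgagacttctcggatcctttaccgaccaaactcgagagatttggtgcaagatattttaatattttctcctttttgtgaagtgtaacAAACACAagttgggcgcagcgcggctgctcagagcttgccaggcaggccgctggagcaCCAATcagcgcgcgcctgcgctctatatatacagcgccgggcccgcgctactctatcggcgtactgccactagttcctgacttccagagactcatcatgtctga
*Hist1h1a*, chr13:23763418-23763717 (plus strand): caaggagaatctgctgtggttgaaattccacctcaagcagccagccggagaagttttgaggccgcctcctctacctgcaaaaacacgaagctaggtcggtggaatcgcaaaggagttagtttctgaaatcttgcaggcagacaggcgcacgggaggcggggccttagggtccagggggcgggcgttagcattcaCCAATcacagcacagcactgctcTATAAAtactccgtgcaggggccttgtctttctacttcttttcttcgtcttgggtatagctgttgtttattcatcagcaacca
*Hist1h2ah*, chr13:22035594-22035893 (minus strand): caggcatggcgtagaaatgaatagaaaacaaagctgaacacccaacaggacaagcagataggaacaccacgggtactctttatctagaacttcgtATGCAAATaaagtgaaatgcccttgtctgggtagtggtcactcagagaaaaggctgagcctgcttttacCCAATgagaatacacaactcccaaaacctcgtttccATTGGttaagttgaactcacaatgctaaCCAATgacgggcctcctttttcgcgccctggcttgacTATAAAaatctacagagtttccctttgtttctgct
*Hist1h1c*, which rose at P1d, and *Hist1h1a*, which fell, both hold CCAAT. The H1 box was found in *Hist1h1c* and not in *Hist1h1a*, but it was also found in the other 4 H1 windows, of which *Hist1h1b* and *Hist1h1d* fell. *Hist1h2ah* holds the octamer, and its window overlaps that of *Hist1h2bk*, which fell by 2.25.

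Among genes that make and process histone mRNA, *Slbp* followed the members. It read 26.7, 25.1 and 26.6 FPKM at E18.5d, 11.1, 10.4 and 11.4 at P1d and 16.4, 16.8 and 18 at P7d. Among the P1d hearts it was lowest in replicate 2, where most members were highest. The stages were separate, with log2 changes of -1.18 ± 0.06 at P1d (adjusted p = 2.28e-06, limma) and 0.59 ± 0.06 from P1d to P7d (adjusted p = 1.12e-04). The member sum was 943 ± 106 (SD, n = 3), 922 ± 227 and 1034 ± 127 times *Slbp*, so the ranges of this ratio overlapped. *Npat*, which switches histone genes on at the start of S phase, averaged 6.55 FPKM at E18.5d, 5.98 at P1d (adjusted p = 0.182, limma) and 4.71 at P7d. *Ccne2*, a cyclin of the kinase that activates NPAT, went from 16.4 to 1.60 and then 5.60 FPKM, and was named after its values were seen.

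Of 22 tested genes for histone transcription and 3′ processing, 13 fell and none rose at P1d, and 7 rose and 5 fell from P1d to P7d. Over all tested genes, 27.6% fell and 18.4% rose at P1d, and 15.5% rose and 28.6% fell from P1d to P7d, so the 5 of 22 is below that share. *Lsm11*, a part of the U7 particle that cuts histone mRNA, went from 3.34 to 1.80 and 2.58 FPKM, whereas its partner *Lsm10* read 13.2, 12.5 and 8.87. *Hinfp*, a factor for H4 genes, read 5.38, 3.93 and 4.55 FPKM. *Casp8ap2* averaged 4.93, 2.76 and 4.49 FPKM with an adjusted p of 0.128 at P1d by limma. Its P1d change ranged from -0.88 to -0.27 with 1 heart left out, and without E18.5d replicate 1 it passed (adjusted p = 0.0338). *Zfp473* stayed under 0.350 FPKM in every heart. Of 13 tested genes for histone mRNA decay, 8 fell and 2 rose at P1d, against the same 27.6% and 18.4% of all genes. From P1d to P7d, 4 of them rose and 6 fell, against 15.5% and 28.6% of all genes. Their median log2 change in that step was -0.14. *Eri1*, a nuclease that trims the hairpin end, went from 7.85 to 3.53 and 5.61 FPKM.

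DNA replication and chaperone genes gave the setting. Of 36 tested S phase genes, 35 fell at P1d and none rose, and 28 rose and 1 fell from P1d to P7d. Over all tested genes, 27.6% fell and 18.4% rose at P1d, and 15.5% rose and 28.6% fell from P1d to P7d. *Pcna*, the replication clamp, averaged 83.5, 31.0 and 50.3 FPKM, the helicase gene *Mcm2* 37.0, 9.68 and 25.7, and *Rrm2*, which supplies deoxynucleotides, 67.8, 17.0 and 40.4. The member sum was 26.8 ± 1.56, 27.6 ± 6.59 and 30.4 ± 3.64 times the sum of these S phase genes at the 3 stages, and the range over the P1d hearts took in both other ranges. Of 22 chaperone genes, 14 fell and none rose at P1d, where 27.6% of all tested genes fell. From P1d to P7d, 6 of them rose, 3 fell and 13 were called in neither direction, with a median log2 change of -0.05. Over all tested genes, 15.5% rose and 28.6% fell in that step. The replication-coupled chaperones *Asf1b* (15.6, 3.33 and 7.81 FPKM), *Chaf1a* (8.77, 2.37 and 5.56), *Chaf1b* (11.3, 4.85 and 7.81) and *Nasp* (30.6, 13.7 and 18.1) fell at P1d and rose by P7d. With *Xist* as a covariate the rises of *Chaf1b* (0.55, adjusted p = 0.0582) and *Nasp* (0.44, adjusted p = 0.0594) did not pass, and that of *Nasp* was also lost without P1d replicate 1 (adjusted p = 0.0669), P1d replicate 2 (0.0635), P7d replicate 1 (0.0685) or P7d replicate 3 (0.0723). *Hira*, which deposits H3.3 outside replication, read 14, 13 and 11.9 and passed in no comparison.

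Replacement histones moved in both directions. Of 11 tested, 4 rose and 4 fell at P1d, where 18.4% of all tested genes rose and 27.6% fell, and with so few genes these counts are not set apart from that share. *H3f3b*, which encodes H3.3, read 117, 113 and 103 FPKM at E18.5d, 203, 210 and 212 at P1d and 150, 143 and 143 at P7d, a log2 change of 0.91 ± 0.06 at P1d (adjusted p = 5.92e-06, limma). *H3f3a*, the other H3.3 gene, averaged 227, 276 and 217 FPKM, and its rise at P1d (0.28 ± 0.08, adjusted p = 0.0159) did not pass with all libraries set to the same total. The replication-dependent H3 sum was 9.63, 9.73 and 8.28 times that of *H3f3a* and *H3f3b* in the E18.5d hearts, 1.53, 2.20 and 1.90 times in the P1d hearts and 5.25, 7.15 and 6.94 times in the P7d hearts. These ranges did not overlap. The size of the ratios may not give the makeup of H3 mRNA. Capture of mRNA without a poly(A) tail was not tested, and short genes are divided by a small number.

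*H2afx*, whose mRNA can end at a hairpin or be polyadenylated, read 81.9, 81.3 and 71.5 FPKM at E18.5d, 14.7, 24.2 and 24.7 at P1d and 36.5, 50.3 and 49.1 at P7d, in the order of the members. *H2afz*, the H2A.Z gene, fell with them at P1d, from 187 to 86.5 FPKM (log2 change -1.11 ± 0.10, adjusted p = 3.01e-05, limma), but stood at 89.1 at P7d. *Cenpa*, the centromeric H3, read 36.1, 25.7 and 28.9 FPKM, the linker variant *H1f0* 88.4, 105 and 81.6 and macroH2A gene *H2afy* 34.3, 28.2 and 30.6.

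**Figure D5:**
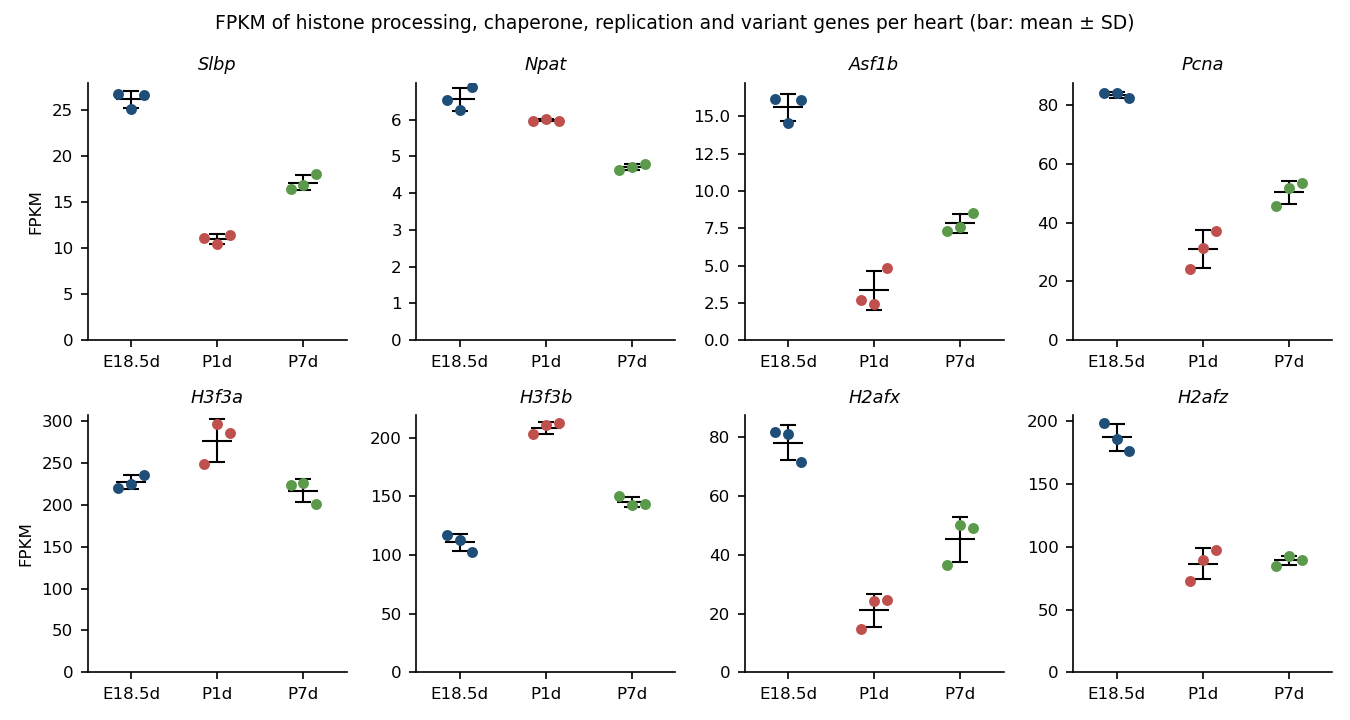
FPKM (y axis) of *Slbp*, *Npat*, *Asf1b*, *Pcna*, *H3f3a*, *H3f3b*, *H2afx* and *H2afz* in each heart by stage (x axis); points are hearts and bars the mean ± SD of 3. *Slbp*, *Asf1b*, *Pcna* and *H2afx* are lowest in the P1d hearts, *H3f3b* is highest there, and *H2afz* is low at both postnatal stages.

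Marker lists of heart cell types, blood and other tissue also differed between stages. The 8 cardiomyocyte markers summed to 16827 to 17103 FPKM at E18.5d, 20328 to 21847 at P1d and 17280 to 17843 at P7d. Single markers went different ways, so this sum was not read as a share of cardiomyocytes. In order of age, *Myh6* stood at 3189 to 3260, 6408 to 6958 and 7980 to 8564 FPKM. *Myh7* stood at 3510 to 3656, 1631 to 2305 and 54.15 to 143 FPKM. The 8 fibroblast markers summed to 2035 to 2135, 1714 to 2275 and 2747 to 2830 FPKM at these stages, and the 8 endothelial markers to 425 to 461, 514 to 567 and 573 to 594. Single markers of both lists also went different ways. *Col3a1* read 681 to 740 FPKM at E18.5d and 1194 to 1211 at P7d, but *Postn* 495 to 511 and 405 to 483. *Cdh5* read 81.35 to 91.7 and 125 to 133, but *Emcn* 39.8 to 44.4 and 21.8 to 27.2. Neither sum was read as a share of cells. Erythroid markers, mainly globins, summed to 8467 to 22809 FPKM at E18.5d, 12766 to 24746 at P1d and 8655 to 10512 at P7d, and 8 of the 11 in the table averaged above 1 FPKM at each stage. The neutrophil list summed to 5.99 to 11.1 FPKM at E18.5d, 42.1 to 67.4 at P1d and 12.9 to 17.7 at P7d. The lung list reached 137 FPKM at E18.5d and 222 at P1d, the latter in replicate 1, through *Scgb3a2*, and no more than 0.560 at P7d. The liver list summed to 1.66 to 9.42 FPKM at E18.5d, 1.38 to 33.3 at P1d and 0.73 to 1.15 at P7d. Its highest sum was in P1d replicate 2, the heart that stood apart, with *Alb* at 15.9 FPKM and *Apoa1* at 10.3. The part of these cells in the histone values was not tested. With any 1 heart left out, 55 to 57 members were lower at P1d.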

How the data were processed

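Members and gene lists were chosen with earlier results of these data known. Per the labels, total RNA was extracted with Trizol and sequenced with a NEBNext Ultra library kit, and the submitters' processing notes name STAR and GRCm38 (mm10). The small structural RNA *Rn7sk* read 262078 to 434217 FPKM over the hearts. How fully mRNA without a poly(A) tail was captured was not tested, so histone levels may not compare with those of polyadenylated genes. The counting tool, its treatment of reads from identical copies and the annotation are not given in the sources used here. The authors deposited FPKM per gene to 2 decimals, and no counts. Depth, read from the steps of low values, was about 25500000 to 45000000 fragments per heart, with 72.3 to 88.7% of low values within 0.1 of a whole fragment. Identifiers were matched to GENCODE M21 (44 of 65 members have the same version, so other lengths may differ), and *Hist1h2bh* and *Hist1h2bm* were not analysed here.

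The 13618 genes averaging 1 FPKM or more in these hearts were fitted on log2(FPKM + 1) in limma 3.58.1 (R 4.3.3), all 3 stages in 1 model with eBayes trend, and adjusted by Benjamini-Hochberg. A fold change on this scale understates that of low genes. In data simulated with 200 genes changed by 1.5 on the log2 scale, 195 were called for P7d against E18.5d and 193 for P7d against P1d, with 12 and 10 unchanged genes also called. Named genes were, per histone type, the 3 with the highest mean and the called ones with the largest change each way, the testis-linked or differently processed members, the untested members and a fixed set from the other lists. Members and other genes beyond this rule, such as *Ccne2*, were named after their values were seen. Sums per type had no test. Alternatives covered pseudocount, filter, scaling, length offset, fit, covariate and each heart left out. Figures were drawn with matplotlib 3.10.9 in Python 3.11.15.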

Additional observations from a re-analysis of the deposited data

How the results depend on the processing

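The counts of members lower at P1d than E18.5d and higher at P7d than P1d stayed within 1.5 times under every alternative (55 to 57 and 47 to 52 with 1 heart left out), and so did the ratios of the whole sums. Among the ratios by type, median of ratios moved P7d to E18.5d to 1.02 for H1 and 0.760 for H2B. Members lower at P7d than E18.5d numbered 34 in the reported fit but 13 after median-of-ratios scaling, 22 with columns rescaled to protein-coding nuclear genes, 17 after quantile normalization, 52 with the compared stages alone, 2 when a log2 change of 1 or more was also required, and 19 to 50 with 1 heart left out (20 without E18.5d replicate 1, 19 without P7d replicate 1). Members higher in that comparison numbered 1, 1 and 2 under these 3 scalings. An equal sum gave 1 higher at P1d and 2 lower from P1d to P7d, and the log2 limit 0 for each. The cause was not tested. The shared replicate numbers did not pair the hearts (correlation of deviations -0.055 to 0.112), and a replicate block gave 43 lower at P7d.

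Genes near zero changed sign. For P7d against E18.5d, median of ratios, protein-coding sum and quantile normalization gave 0.13, 0.095 and 0.10 for *Casp8ap2*, 0.099, 0.055 and 0.00032 for *H1f0*, 0.14, 0.10 and 0.081 for *H3f3a*, 0.11, 0.070 and 0.17 for *Hist2h2aa2*, and the earlier pair of settings 0.046 and 0.0036 for *H2afy*. An equal sum gave -0.029 and the length offset -0.00051 for *Hist1h1c*, and the offset -0.049 for *Hist2h3b*. For P7d against P1d, median of ratios, equal sum and protein-coding sum gave 0.012, 0.0085 and 0.030 for *Hira*, quantile normalization 0.0092 for *Hist1h1e*, and the *Xist* covariate -0.037 for *Hist3h2a*. For P1d against E18.5d, an equal sum gave -0.061 for *Hist1h1t* and median of ratios 0.0044 for *Lsm10*. With 1 heart left out, the change from E18.5d to P7d ranged from -0.33 to 0.29 for *Casp8ap2*, -0.097 to 0.12 for *Hist1h1c*, -0.012 to 0.14 for *Hist1h1e* and -0.066 to 0.16 for *Hist2h3b*, that from P1d to P7d from -0.065 to 0.14 for *H2afz* and -0.060 to 0.10 for *Hist3h2a*, and that from E18.5d to P1d from -0.20 to 0.0090 for *Hira* and -0.20 to 0.025 for *Lsm10*. None of these passed the test in the reported fit except the change of *Hist1h1e* from P1d to P7d.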
